A study of Mus musculus with 6 samples.

Results

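Long intergenic noncoding RNAs (lincRNAs) are defined as transcripts that lie between protein-coding genes and are not known to be translated. In the deposited gene table of a study of mouse long-term hematopoietic stem cells (LT-HSCs), 5629 of 55487 rows carried the gene type lincRNA. The 196 described here were chosen by their level, as lincRNA rows with at least 60 counts summed over the 6 libraries. This choice was made with earlier results of these data known. Not every member meets the definition: 21 of the 196 overlap the body of a coding gene, and the annotation GENCODE M21 types 3 as protein-coding. Malat1, Neat1, Meg3, H19 and the Snhg genes were left out, and 7 of those had reached 60 counts. Of the other lincRNA rows, 4210 had a count of 0 in every library and 1216 had between 1 count and the minimum. Just inside the minimum were Gm10655, Gm13203 and Gm50321 with 60 counts each, and just outside it C230035I16Rik and Gm31718 with 59 and 9230112J17Rik with 58.

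LT-HSCs are the rare bone marrow cells from which all blood lineages can be renewed. The cells were sorted from the marrow of wild-type mice that had not been irradiated, by the absence of lineage markers, Flk2 and CD34 and the presence of Sca-1 and c-Kit. The mice had received either saline or the dipeptide carnosine, made of histidine and beta-alanine, and each group gave 3 libraries of poly-A RNA. The libraries are named here saline 1 to 3 and carnosine 1 to 3 after the replicate numbers in the labels. The labels do not say whether the libraries of a group came from separate mice, so p-values measure the spread between these libraries, which may be technical. The sources used here do not give strain, age, sex, dose or duration.

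Known lincRNAs act in different ways. Some are precursors from which microRNAs are cut, and their spliced RNA is then a by-product of making the microRNA. Some act on a neighbouring gene through the act of transcription or by holding chromatin factors at the locus, and others bind proteins or microRNAs away from the gene. Many are made at low level and are degraded in the nucleus by the RNA exosome, and a transcript that starts beside the promoter of a coding gene, running the other way, is a common kind.

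The results below turn in part on members that carry microRNA genes, so the mature microRNAs of 3 of these hosts are shown first, from RefSeq (build GRCm38.p6), with the seed (bases 2 to 8, which pair with the target) in capitals. The microRNAs themselves were not measured here, since poly-A libraries do not capture them. Mir142hg holds Mir142 (chr11:87756864-87756927, plus strand), a microRNA gene active throughout the blood lineages. In its hairpin the capitals mark both mature parts.
Mir142 hairpin: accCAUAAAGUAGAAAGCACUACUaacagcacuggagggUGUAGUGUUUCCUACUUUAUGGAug
mmu-miR-142a-5p: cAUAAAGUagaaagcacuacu
mmu-miR-142a-3p: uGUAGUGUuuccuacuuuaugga
4833445I07Rik holds Mir191 (chr9:108568319-108568392, plus strand) and, 385 bases on, Mir425 (chr9:108568777-108568861, plus strand), whose main products have different seeds.
mmu-miR-191-5p: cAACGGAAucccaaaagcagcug
mmu-miR-425-5p: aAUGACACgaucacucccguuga
Mir17hg is the host of the cluster that runs from Mir17 (chr14:115043671-115043754) to Mir92-1 (chr14:115044427-115044506), on the plus strand, which is known for promoting proliferation and for blocking death of B cell progenitors. Its 6 main products fall into 4 seeds. The seed AAAGUGC is shared by miR-17 and miR-20a, and GUGCAAA by miR-19a and miR-19b, while miR-18a and miR-92a each have their own.
mmu-miR-17-5p: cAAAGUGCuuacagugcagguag
mmu-miR-20a-5p: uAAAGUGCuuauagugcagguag
mmu-miR-18a-5p: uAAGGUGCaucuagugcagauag
mmu-miR-19a-3p: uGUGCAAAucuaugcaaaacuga
mmu-miR-19b-3p: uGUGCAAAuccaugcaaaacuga
mmu-miR-92a-3p: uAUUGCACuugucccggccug

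A few lincRNAs held most of the reads. The summed count of a member ranged from 60 to 19069 with a median of 171.5, and the 4 most abundant members took 38.5% of all counts in the 196, the 10 most abundant 62.2%. In levels per length (FPKM, as deposited), the median member stood at 1.38 and 83 members were under 1, while 16 reached at least 10. Protein-coding rows with the same minimum of 60 counts, 12275 in all, had a median FPKM of 4.94. The members' longest annotated transcripts had a median of 1697 bases and 2 exons, against 3419 bases and 8 exons for those protein-coding genes. GC content was 47.3% against 49.7%. In 52 members the longest transcript had 1 exon. Most members carry no functional name: 112 have a predicted Gm number and 58 a RIKEN clone name. They lay on every chromosome from 1 to 19 and on X and Y, with most on chromosomes 5 (24), 6 (19) and 17 (16).

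Part of the members cannot be read apart from other genes. For 44 members, at least 20% of the 50-base words of their transcripts occur in another gene, and for 7 at least 90%. Exons of 24 members overlap an exon of another gene on the same strand, and those of 49 overlap one on the opposite strand. The sources used here do not say how the counting treated reads that match several places, or whether it used the strand of these stranded libraries. Levels of such members are therefore uncertain, and the sharing is given where such a member is named.

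By FPKM the highest member was Gm10076, a transcript of 384 bases at a mean of 126 FPKM over the 6 libraries, which shares 69.9% of its 50-base words with the ribosomal protein gene Rpl41 and its copies. Erdr1 followed at 80.0 FPKM and 2900097C17Rik at 51.9 FPKM. 2900097C17Rik is the mouse Norad, a cytoplasmic RNA known for binding Pumilio proteins and for a part in keeping the genome stable, and it had the most counts of all members. Its levels were 263, 262 and 264 CPM (counts scaled to the library's size) in saline and 285, 273 and 291 CPM in carnosine. The groups did not overlap, but at a log2 fold change of 0.11 (SE 0.03) the difference did not pass the test (edgeR adjusted p = 0.0509). It passed with limma-voom and without carnosine replicate 2, where the adjusted p was 0.0337. Gm7292, which shares 77.5% of its words with 2900097C17Rik, stood near 51 CPM in both groups (log2 fold change -0.02, adjusted p = 0.845).

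Oip5os1, known as Cyrano, is a conserved RNA with a site that directs the decay of miR-7. It was at 98.5, 109 and 113 CPM in saline and at 116, 115 and 115 CPM in carnosine (log2 fold change 0.11, SE 0.05, adjusted p = 0.188). AU020206 was at 106 ± 2.77 CPM and 114 ± 1.25 CPM (SD, n = 3; adjusted p = 0.103). In both RNAs each carnosine library lay above each saline library, without passing the test. Among the other members high per length, AW112010, an RNA induced in activated immune cells, stood at 26.2 FPKM and Gm28875 at 25.9 FPKM. Their log2 fold changes were 0.01 (adjusted p = 0.954) and -0.09 (adjusted p = 0.537), and their groups overlapped. Epb41l4aos, at 26.7 FPKM, measured 20.7 ± 1.24 CPM in saline and 18.4 ± 0.102 CPM in carnosine (SD, n = 3; adjusted p = 0.169).

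The comparison of carnosine with saline asks what the dipeptide changes in these stem cells without irradiation. Of the 196 members, 192 passed the filter on low counts and were tested in a fit over 15298 genes. The filter asks for enough counts in as few as 3 libraries, so a member may pass through the group in which it is higher. Among the called members, Gm42889 and Gm45620 passed only through carnosine and Gm7967 only through saline. Whether these were tested at all thus depended on the group where they are high. In carnosine 14 of the 192 were called lower (7.29%) and 3 higher (1.56%), at an edgeR adjusted p under 0.05. Over all genes tested, 8.39% were called lower and 9.51% higher. Low counts make calls rarer: among 1669 protein-coding genes whose average log2 CPM lay between the members' quartiles (0.70 and 2.71), 4.55% were called lower and 3.42% higher. So the share called lower was near that of all genes, and the share called higher was below both. These shares are a description of the list, with no test of their difference.

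Most members leaned to the lower side by small amounts. The log2 fold change was under 0 in 128 of 192 (66.7%), against 49.8% of all genes and 54.8% of the protein-coding genes of like level. The median was -0.11, against 0.00 and -0.05. The middle of the members ran from -0.39 at the 25th percentile to 0.10 at the 75th. In 45 members every carnosine library lay under every saline library (23.4%), against 18.7% of all genes tested and 16.1% of the protein-coding genes of like level. In 12 every carnosine library lay above (6.25%), against 20% and 10.7%. The members took 0.237%, 0.242% and 0.242% of all counts in saline 1 to 3 and 0.211%, 0.207% and 0.209% in carnosine 1 to 3, that is 0.240% ± 0.0031 and 0.209% ± 0.0022 (SD, n = 3). This share is weighted to the most abundant members, of which the top 4 held 38.5% of the members' counts. Gm47283 and Gm42047, abundant members that share sequence with other genes, fell and make up part of it, as given below. The share therefore does not measure how many members fell. In bulk RNA, fewer cells of a kind and less RNA per cell cannot be told apart.

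**Figure D1:**
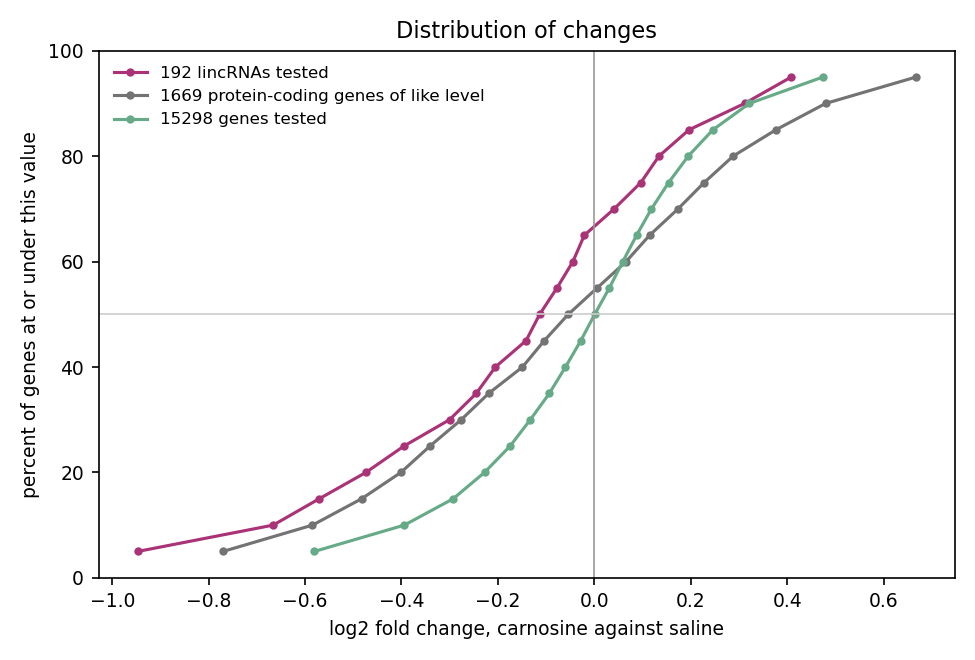
Percentiles of the log2 fold change (x axis, carnosine against saline) from the 5th to the 95th (y axis, percent) for the 192 lincRNAs tested, 1669 protein-coding genes between the lincRNAs' quartiles of level, and all 15298 genes tested. The lincRNA line crosses 50% at -0.11 and lies left of both other lines at each percentile plotted.

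The number of calls rested on having all 6 libraries. It was 10 without saline replicate 1, 9 without saline replicate 2, 12 without saline replicate 3, and 10, 11 and 8 without carnosine replicates 1, 2 and 3. No fit with 1 library left out called more than 2 members higher. Of the 17, 7 kept their call in each of these 6 fits, namely Gm47283, Gm42047, Gm19590, Gm26802, Mir142hg, 4833445I07Rik and 5031425E22Rik. At an unadjusted p under 0.05, 47 of the 192 members differed (24.5%), against 32.9% of all genes and 20.4% of the protein-coding genes of like level. Of the 96 members with the larger summed counts, 12 were called lower and 1 higher, and of the 96 with the smaller sums 2 and 2, with a median SE of 0.16 and 0.30 on the log2 scale.

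**Figure D2:**
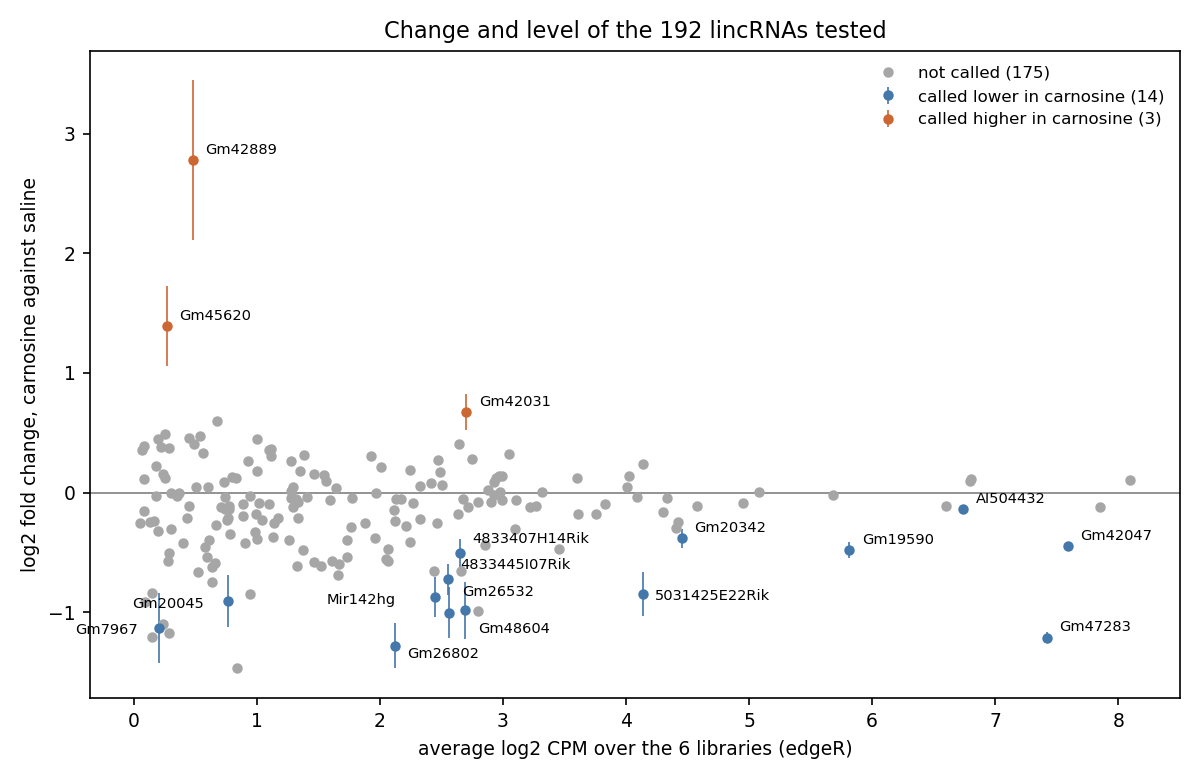
Log2 fold change, carnosine against saline (y axis), against the average log2 CPM over the 6 libraries (x axis) for the 192 lincRNAs tested. Blue and orange points with SE bars are the 14 called lower and the 3 called higher, and grey points were not called. Gm47283 is the 1 called change past 1 in size among the abundant members.

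Signs of other blood cells moved between the groups beside these changes. All 10 markers of LT-HSCs were detected, with a summed level of 1116 to 1146 CPM in saline and 1107 to 1256 CPM in carnosine. The 10 B lineage and plasma cell markers summed to 744 to 803 CPM in saline and 1486 to 1754 CPM in carnosine, most of it Igkc, Jchain and Ighm. The 8 neutrophil and monocyte markers summed to 762 to 776 CPM and 505 to 517 CPM, the 6 erythroid markers to 39.8 to 49.2 CPM and 96.8 to 98.6 CPM, and the 5 basophil and mast cell markers to 30.5 to 33.6 CPM and 15.4 to 16.9 CPM. T and NK, megakaryocyte and stromal lists stayed closer, at 80.0 to 83.8, 74.0 to 77.6 and 125 to 127 CPM in saline and 73.4 to 78.7, 69.1 to 76.1 and 114 to 118 CPM in carnosine. No listed marker was at 0 in all libraries. The part of these cells in the members' changes was not tested. Library totals were 10304539 to 13251332 counts.

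Among the abundant members, 4 fell in carnosine: Gm47283, Gm42047, Gm19590 and AI504432. Gm42047 (ENSMUSG00000110631, chr8:121833247-121841178, plus strand) lies head to head with the coding gene Klhdc4, 3678 bases away. It was at 223, 217 and 224 CPM in saline and at 165, 162 and 159 CPM in carnosine. The groups lay far apart relative to their spread (log2 fold change -0.45, SE 0.03, edgeR adjusted p = 0.000112), while Klhdc4 itself showed no difference past the test (log2 fold change -0.01, adjusted p = 0.951). Of the words of Gm42047, 72.9% occur in other genes, Gm47761 and Gm47939 among them, so its reads may stem from more than 1 place.

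Gm47283 (ENSMUSG00000096768, chrY:90784738-90816465, plus strand) had the smallest adjusted p of all members. It was at 226, 244 and 245 CPM in saline and at 107, 103 and 98.1 CPM in carnosine, which gives a log2 fold change of -1.21 with an SE of 0.05 (edgeR adjusted p = 7.93e-06). GENCODE M21 types it as protein-coding, as it does 2 other members. Its sequence contains every 50-base word of Erdr1 (chrX:170009659-170019281), a member at the end of the X chromosome that is named for a regulator of erythroid differentiation. Erdr1 was at 231, 249 and 238 CPM in saline and at 218, 225 and 220 CPM in carnosine, lower in each library but not called (log2 fold change -0.12, adjusted p = 0.0581). Mid1, the coding gene 3923 bases before Erdr1 on its strand, was called lower (-0.65, edgeR adjusted p = 0.0183). Counts of Gm47283 per count of Erdr1 were 0.976, 0.980 and 1.03 in saline and 0.494, 0.456 and 0.447 in carnosine. The ratio thus differed between the groups by more than its spread within them, although reads could be divided between these genes in counting. With library totals only or upper quartile scaling Erdr1 was called lower too.

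Gm19590 (ENSMUSG00000107061, chr5:75833035-75835645, minus strand) shares no 50-base word with another gene and lies 97182 bases from the nearest coding gene, Kdr. Its level was 65.5, 62.2 and 68.1 CPM in saline and 48.3, 43.1 and 49.0 CPM in carnosine. The groups did not overlap (log2 fold change -0.48, SE 0.07, edgeR adjusted p = 0.00324). Kdr, the receptor of vascular endothelial growth factor, was at 2.59 to 3.39 CPM in saline and 2.78 to 4.72 CPM in carnosine and was not called (adjusted p = 0.541).

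AI504432 (ENSMUSG00000056145, chr3:107039504-107054347, plus strand) starts 1434 bases past the end of the potassium channel gene Kcna3, on its strand. It showed the smallest change of the 17, from 111, 112 and 111 CPM to 101, 102 and 102 CPM (log2 fold change -0.14, SE 0.03, edgeR adjusted p = 0.0283). Kcna3 was not called (-0.26, adjusted p = 0.108). Gm20342 (ENSMUSG00000101599, chr1:63117118-63126837, plus strand), head to head with the chromatin remodelling subunit Ino80d, fell from 24.9, 22.6 and 26.1 CPM to 19, 19.2 and 18.3 CPM (-0.38, SE 0.08, adjusted p = 0.0161). Ino80d varied within carnosine, at 38.1, 186 and 130 CPM against 206 to 219 CPM in saline, and was not called (adjusted p = 0.23). AI504432 lost its call without any of the 6 libraries (adjusted p up to 0.085). Gm20342 lost it without saline replicate 1 or 3 or carnosine replicate 3 (adjusted p up to 0.0576).

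**Figure D3:**
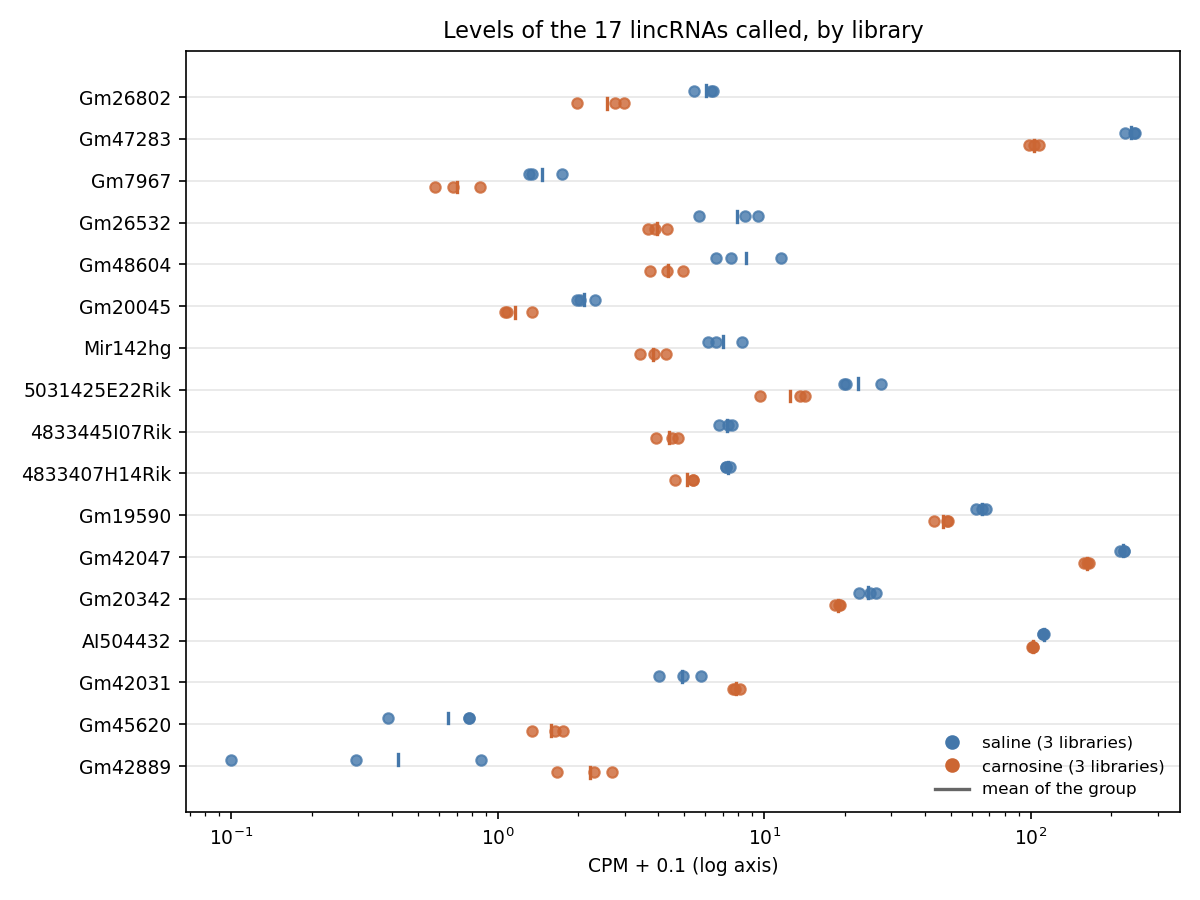
Levels of the 17 called lincRNAs in each library, as CPM with 0.1 added so that a value of 0 can be drawn on the log axis (x axis), ordered by log2 fold change (y axis). Blue points are the 3 saline and orange points the 3 carnosine libraries, ticks are group means, and in each of the 17 the groups do not overlap.

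All 9 members that contain a microRNA gene or touch one on their strand had a log2 fold change under 0, from -1.0 to -0.18 with a median of -0.62. This grouping by annotation was made after values had been seen. Of the 9, 3 were called lower and 6 had carnosine libraries that all lay under the saline libraries. The shares called lower were 8.39% over all genes and 7.29% over the members, and those of groups that lay apart in this direction 18.7% and 23.4%. No test was made of the 9 against these shares. Mir142hg (ENSMUSG00000084796, chr11:87755577-87757270, plus strand) was at 6.04, 8.14 and 6.5 CPM in saline and 3.31, 3.74 and 4.16 CPM in carnosine. Every carnosine library was under every saline library, with a log2 fold change of -0.88 (SE 0.17) and an edgeR adjusted p of 0.0123. The hairpin shown above lies inside this gene but outside its annotated exons, so the counts are of the host RNA and not of the precursor. Tspoap1, the coding gene that follows on the same strand 3271 bases away, was at 13.5 to 16.2 CPM in saline and 11.4 to 14.6 CPM in carnosine and was not called (-0.21, adjusted p = 0.283). Counts of Mir142hg per count of Tspoap1 were 0.382, 0.503 and 0.483 in saline and 0.247, 0.257 and 0.364 in carnosine.

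4833445I07Rik (ENSMUSG00000103103, chr9:108567533-108569174, plus strand) has 1 exon of 1642 bases in which both Mir191 and Mir425 lie. It was at 7.48, 6.68 and 7.18 CPM in saline and 4.63, 3.84 and 4.39 CPM in carnosine, which do not overlap (log2 fold change -0.73, SE 0.13, edgeR adjusted p = 0.00974). Its start is 99 bases from that of Ndufaf3, an assembly factor of respiratory complex I on the other strand, which was not called (-0.29, adjusted p = 0.169). Gm26532 (ENSMUSG00000097296, chr8:84208920-84209609, plus strand) shares only 2 bases with the end of the Mir24-2 precursor and starts 162 bases past that of Mir27a, so it covers the stretch after this microRNA cluster. It fell from 9.40, 8.33 and 5.60 CPM to 3.56, 4.22 and 3.78 CPM (-1.0, SE 0.21, adjusted p = 0.0185). Saline replicate 3 lay closest to the carnosine libraries, without overlapping them. The call was lost without saline replicate 1 or 2 or carnosine replicate 1 or 3 (adjusted p up to 0.0615).

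Mir17hg (chr14:115042879-115046727, plus strand) was at 7.00, 8.52 and 7.11 CPM in saline and 6.04, 3.84 and 4.39 CPM in carnosine. The libraries did not overlap, but the difference narrowly missed the threshold (log2 fold change -0.66, SE 0.19, edgeR adjusted p = 0.051), and it passed in 5 of 16 alternative settings. Gm37233, which holds Mir5103, was at 3.17 to 3.49 CPM in saline and 1.66 to 2.73 CPM in carnosine (-0.62, adjusted p = 0.0914). Ftx, which holds Mir374b and Mir421, had a smaller difference, 14.2 ± 0.849 CPM against 12.5 ± 0.432 CPM (SD, n = 3; -0.18, adjusted p = 0.193). In the other 3 hosts the groups overlapped: 2900076A07Rik with Mir1839 (-0.51, adjusted p = 0.38), 6720427I07Rik with 3 let-7 genes that share the seed GAGGUAG (-0.25, adjusted p = 0.596), and Gm27000 with a copy of Mir1906 (-0.21, adjusted p = 0.557). Gm27000 shares 93.7% of its words with Meg3 and others.

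**Figure D4:**
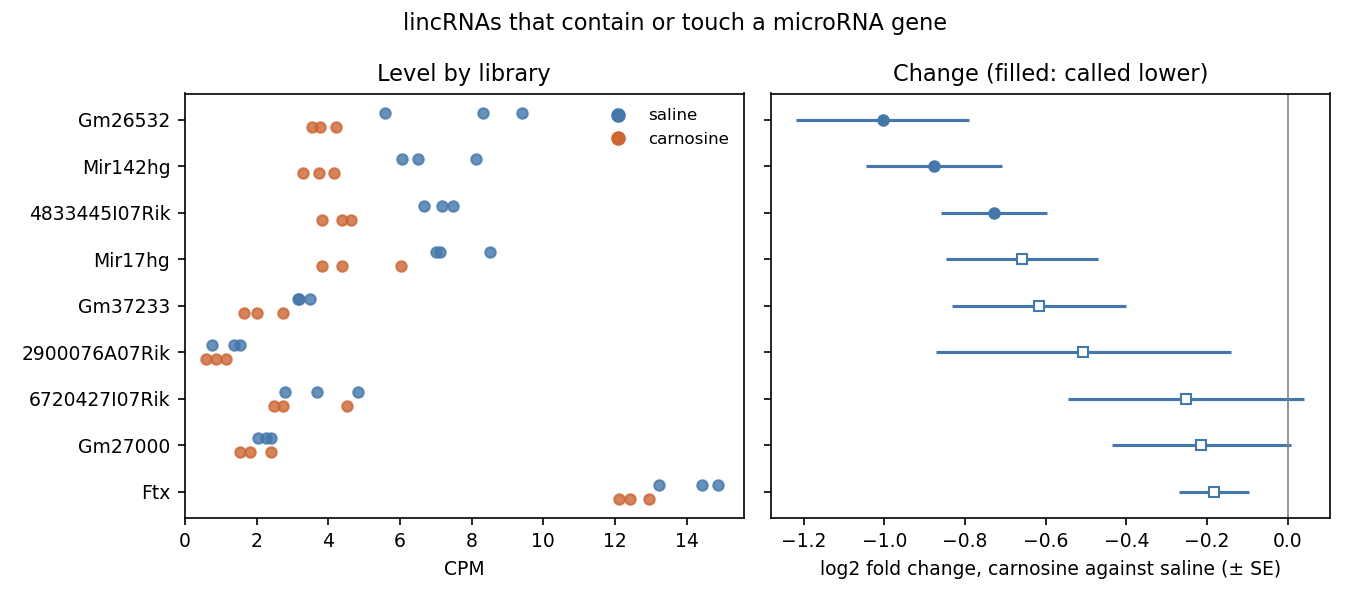
Left, CPM in each library (x axis) of the 9 lincRNAs that contain or touch a microRNA gene (y axis), saline in blue and carnosine in orange. Right, their log2 fold change with its SE (x axis). All 9 points lie under 0, and the 3 filled points passed the test.

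Some called members lie beside coding genes that also moved. Gm26802 (ENSMUSG00000097266, chr7:19298260-19300770, minus strand) starts 1926 bases past the end of Fosb, a subunit of the transcription factor AP-1, and runs on the same strand. It was at 6.33, 5.33 and 6.20 CPM in saline and 2.65, 2.88 and 1.89 CPM in carnosine. The groups stood well apart (log2 fold change -1.28, SE 0.19, edgeR adjusted p = 0.00413). Fosb moved by a like amount from a far higher level (-1.15, adjusted p = 1.52e-07). Per 1000 counts of Fosb, Gm26802 had 1.03, 0.851 and 1.03 counts in saline and 0.965, 1.05 and 0.67 in carnosine, which overlap. Whether the counts of Gm26802 come from RNA of its own or from Fosb transcripts that run past their end cannot be told apart in these files.

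5031425E22Rik (ENSMUSG00000073147, chr5:23382308-23434269, minus strand) starts 172 bases from Kmt2e, which encodes a protein of the histone methyltransferase family, and runs the other way. It was at 20.2, 27.3 and 19.8 CPM in saline and 14.2, 9.50 and 13.5 CPM in carnosine, groups that do not overlap (-0.85, SE 0.18, edgeR adjusted p = 0.0183). Kmt2e fell less, from 176 to 197 CPM in saline to 148 to 172 CPM in carnosine (-0.26, SE 0.07, adjusted p = 0.0326). Gm48604 (chr9:44290044-44292463, minus strand) overlaps an exon of the zinc finger gene Hinfp on the same strand. It was at 11.4, 6.49 and 7.41 CPM in saline and 3.64, 4.22 and 4.84 CPM in carnosine (-0.99, SE 0.24, adjusted p = 0.028), with saline replicate 1 apart from the other saline libraries. Hinfp was at 14.5, 26.6 and 28.1 CPM and 27.2, 25.6 and 34.6 CPM and was not called (0.33, adjusted p = 0.374). The call of Gm48604 was lost without saline replicate 3 or any carnosine library (adjusted p up to 0.088).

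3 more members with fewer reads or shared sequence were called lower. Gm20045 (chr1:171320601-171326177, minus strand), head to head with the death effector gene Dedd, was at 2.21, 1.94 and 1.89 CPM in saline and 1.24, 0.960 and 0.983 CPM in carnosine (-0.91, SE 0.22, edgeR adjusted p = 0.0275). Gm7967 (chr1:98589517-98607384, plus strand) was at 1.25, 1.65 and 1.21 CPM and 0.579, 0.480 and 0.756 CPM (-1.13, SE 0.29, adjusted p = 0.0353). Only the saline libraries of Gm7967 met the filter on low counts. 4833407H14Rik (chr19:53460622-53462723, plus strand) was at 7.10, 7.36 and 7.11 CPM and 5.30, 4.51 and 5.29 CPM (-0.51, SE 0.12, adjusted p = 0.028). It shares 66.6% of its words with Mirt1, which lies over it on the opposite strand and was not called (-0.48, adjusted p = 0.137). The groups of all 3 did not overlap, yet each lost its call whichever library was left out, with an adjusted p of up to 0.0969, 0.126 and 0.0823. The largest fall of any member tested, -1.47 in Gm44067, did not pass (3.65, 2.32 and 1.44 CPM in saline and 1.24, 0.672 and 0.681 CPM in carnosine, adjusted p = 0.0526). The carnosine libraries of Gm44067 alone would not have passed the filter on low counts, so it was tested through saline, where it is high. This member was singled out after its values were seen.

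The 3 members that rose all had low counts or shared sequence. Gm42889 (ENSMUSG00000105650, chr6:67532489-67556204, plus strand) overlaps an exon of Igkv2-137, a V segment of the immunoglobulin kappa light chain, on the same strand, and shares 41.4% of its words with that segment and a further gene. It had 8, 2 and 0 counts in saline and 19, 27 and 29 counts in carnosine. Only its carnosine libraries met the filter on low counts. The carnosine libraries were all higher (log2 fold change 2.78, SE 0.67, edgeR adjusted p = 0.0273), and the size of this fitted change depends on very few saline reads. Igkv2-137 itself was at 1.97 to 2.62 CPM in saline and 5.05 to 6.81 CPM in carnosine (1.39, adjusted p = 0.00298), and the kappa constant region Igkc at 272 to 282 CPM and 882 to 908 CPM (1.71, adjusted p = 5.82e-08). Gm42889 thus moved with antibody genes of B lineage cells, whose summed markers are given above, and their part in its change was not tested. The call was lost without saline replicate 2 or any carnosine library (adjusted p up to 0.0977).

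Gm45620 (ENSMUSG00000110239, chr7:101347409-101347984, minus strand) starts 83 bases from Arap1, a regulator of small GTPases, on the other strand. It had 3, 7 and 9 counts in saline and 15, 16 and 22 in carnosine (log2 fold change 1.39, SE 0.34, edgeR adjusted p = 0.0284). Its saline libraries alone would not have passed the filter, so it was tested through the carnosine libraries, where it is high. Arap1 did not move with it (0.03, adjusted p = 0.507). Gm45620 lost its call in each fit with 1 library fewer, where the adjusted p reached 0.0967. Gm42031 (ENSMUSG00000110386, chr8:85125872-85132289, minus strand) was the 1 rise at a moderate level, from 3.93, 4.84 and 5.67 CPM to 7.53, 7.68 and 8.02 CPM (0.67, SE 0.15, adjusted p = 0.0228). The carnosine libraries were close together above the saline range. Gm42031 shares 60.4% of its words with Gm43305, Gm26880 and Gm4316, and its call was lost without any library except saline replicate 3 (adjusted p up to 0.068).

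Promoters of 92 members were found by symbol in RefSeq (GRCm38.p6), as 250 bases before to 50 after the start. The letters TATAAA, on either strand, occurred in 9 of the 92 (9.78%) and in 14.2% of all 27025 RefSeq promoters. Those of the AP-1 motif TGANTCA occurred in 9 (9.78% against 7.93%), of the CRE TGACGTCA in 4 (4.35% against 1.88%), of the E-box CACGTG in 12 (13% against 7.24%), of the GC box GGGCGG in 39 (42.4% against 35.9%) and of the interferon response core GAAANNGAA in 9 (9.78% against 8.57%). These shares are given without a test, and a match in letters is no evidence of binding. Of the 6 called members with a promoter, 2 held the TATA letters and 2 the interferon response core. The promoter of Gm42031 (chr8:85131765-85132064, minus strand) is shown because this member rose at a moderate level and has TATAAA (capitals) on its own strand 27 bases before the RefSeq start, which lies inside the deposited gene body.
Gm42031 promoter: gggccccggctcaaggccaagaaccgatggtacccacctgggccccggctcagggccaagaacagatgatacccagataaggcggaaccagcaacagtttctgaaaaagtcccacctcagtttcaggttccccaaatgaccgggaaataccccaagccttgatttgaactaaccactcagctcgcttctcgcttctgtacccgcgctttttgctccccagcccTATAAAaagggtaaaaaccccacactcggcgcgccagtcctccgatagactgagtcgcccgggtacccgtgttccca

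The nearest coding gene lay within 5 kb of the member and was tested in 86 pairs, with 85 different neighbours. In these pairs 12 members (14%, where 8.85% of all members tested were) and 19 neighbours (22.1%, where 17.9% of all genes were) were called. Both partners were called in 2 pairs, Gm26802 with Fosb and 5031425E22Rik with Kmt2e. The 2 partners had the same sign in 55 of the 86. Across pairs the log2 fold changes correlated weakly (Pearson 0.13, Spearman 0.25). In 33 pairs on the same strand without overlap the values were 0.51 and 0.42, and 0.31 and 0.37 without the pair of Gm26802 and Fosb. In 33 head to head pairs they were 0.18 and 0.32. These values describe pairs of genes from the same 6 libraries, which are not independent replicates.

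**Figure D5:**
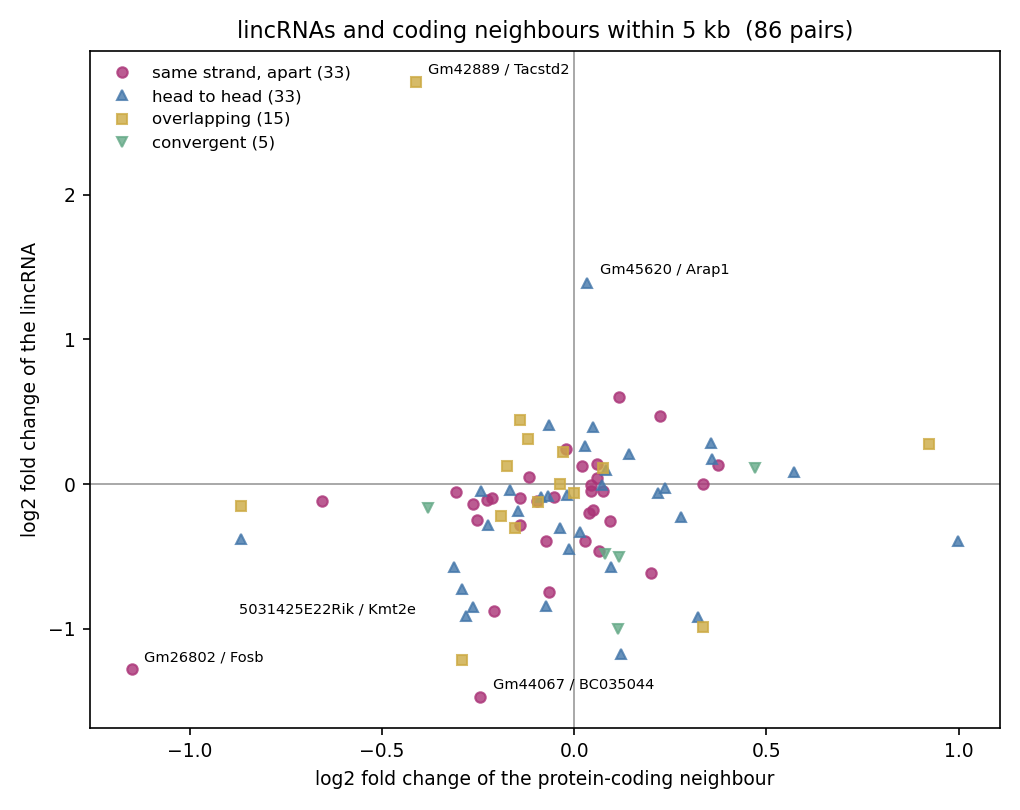
Log2 fold change of each lincRNA (y axis) against that of its nearest coding gene within 5 kb (x axis), 86 pairs, with symbols for their orientation. Gm26802 with Fosb lies far out at the lower left, while Gm42889 and Gm45620, high on the y axis, have neighbours that were not called.

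Where a coding neighbour was called, the lincRNA had the same sign in 15 of 19 pairs, against 55 of all 86 pairs. The log2 fold changes in the 19 pairs had a Pearson correlation of 0.59 and a Spearman correlation of 0.66. These values are a description, in pairs picked by the neighbour's call. The lincRNA itself was called in 2 of the 19 (10.5%), near the 8.85% of all members. Beside the 10 neighbours that rose, 6 lincRNAs had values above 0 and 4 under 0, and none was called. Of those 4, 1110019D14Rik starts 8 bases from 2610001J05Rik, which was called higher (1.0, edgeR adjusted p = 0.028) with carnosine replicate 3 near the saline range. The lincRNA was at 2.49 to 4.55 CPM in saline and 1.97 to 3.48 CPM in carnosine (-0.39, adjusted p = 0.382). C030037D09Rik starts 132 bases from Msi2, an RNA-binding protein that sustains stem cell renewal and rose by 0.22 on the log2 scale (adjusted p = 0.00305), and stayed at 8.61 ± 0.856 CPM and 8.23 ± 0.345 CPM (SD, n = 3; adjusted p = 0.785). Beside the replication factor subunit Rfc5, which rose by 0.24, Gm15728 was at -0.03 (adjusted p = 0.969). Beside the endosomal protein Tm9sf2, which rose by 0.28, A330035P11Rik was at -0.23 (adjusted p = 0.709). Beside Lsm8, a subunit of the ring that binds U6 RNA and which rose by 0.36, Gm20186 was at 0.17 (adjusted p = 0.523). 2010110K18Rik was at 0.47 (adjusted p = 0.396) before Fam53c, which rose by 0.22.

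Beside the 9 neighbours that fell, all 9 lincRNAs had values under 0, where 66.7% of all members tested did. Gm44067 and 9330175E14Rik, tested through saline, where they are high, are among the 9. Gm26802 and 5031425E22Rik passed the test and 7 did not. Of the 7, Gm7160, 124 bases from Zcchc2 (-0.31), was at 3.93, 3.00 and 3.40 CPM in saline and 2.73, 2.02 and 2.19 CPM in carnosine. Its groups did not overlap (-0.57, edgeR adjusted p = 0.0851). 9330175E14Rik, which overlaps Nlrc5, a regulator of MHC class I genes that fell by 0.29, ranged widely, at 0.96 to 1.55 CPM in saline and 0.166, 1.15 and 0.454 CPM in carnosine (-1.21, adjusted p = 0.161). It was called lower without carnosine replicate 2 (adjusted p = 0.046). Its carnosine libraries alone would not have passed the filter on low counts, so its testing depended on the saline libraries, where it is high. Gm49797, which overlaps Scaf8 (-0.19), was at -0.22 (adjusted p = 0.479).

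Of the 13 members tested that stand on name lists of X inactivation, microRNA hosts, p53, cell cycle, stress and immune lincRNAs, Mir142hg was the 1 called (7.69%, near the 8.85% of all members). The host list here goes by symbol and holds Mir142hg and Mir17hg. The host 4833445I07Rik and Gm26532, which only touches the Mir24-2 precursor, were called lower above and are not on it. Trp53cor1, also called lincRNA-p21, lies beside the cell cycle inhibitor gene Cdkn1a and is induced by p53. It was at 4.70, 3.20 and 3.25 CPM in saline and 2.57, 2.02 and 2.27 CPM in carnosine, apart but not called (-0.69, SE 0.22, edgeR adjusted p = 0.0665), and it shares 46.1% of its words with other genes. Cdkn1a varied within both groups (87.8, 209 and 157 CPM in saline, 259, 247 and 145 CPM in carnosine) and was not called (0.52, adjusted p = 0.308). Lncpint, another p53-induced RNA, was at 7.58, 7.17 and 9.53 CPM and 5.63, 6.14 and 6.20 CPM, again apart but not called (-0.44, SE 0.15, adjusted p = 0.0768). Lockd, which follows the cell cycle inhibitor Cdkn1b on its strand, was at 15.9 ± 0.461 CPM and 18.8 ± 1.89 CPM (SD, n = 3; 0.24, adjusted p = 0.123), and Cdkn1b was not called (-0.02, adjusted p = 0.962).

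Pvt1, downstream of Myc, had 1.06, 3.00 and 2.57 CPM in saline and 2.32 to 2.65 CPM in carnosine (0.18, edgeR adjusted p = 0.754). Morrbid, known for limiting the death gene Bcl2l11 in short-lived myeloid cells, was at 2.43 ± 0.44 CPM and 2.70 ± 0.38 CPM (SD, n = 3; 0.15, adjusted p = 0.66), and Bcl2l11 was not called (0.09, adjusted p = 0.789). Jpx, which with Ftx lies in the X inactivation centre and activates Xist, was at 6.98 ± 1.08 CPM and 6.61 ± 0.805 CPM (SD, n = 3; -0.08, adjusted p = 0.78). Xist had 47 counts over the 6 libraries, under the minimum for a member. Of 17 proteins listed as partners of Xist and tested, Ptbp1 rose (0.13, adjusted p = 0.0251), and Hnrnpu (-0.28, adjusted p = 0.0289), Pcgf5 (-1.30, adjusted p = 0.0463) and Rlim (-0.12, adjusted p = 0.0289) fell, with a list median of 0.03. That is 4 called of 17, where 17.9% of all genes were called. Pcgf5 varied widely within saline, at 115 ± 56.2 CPM, against 46.7 ± 2.29 CPM in carnosine (SD, n = 3).

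The nuclear exosome and its adaptors are the machinery that degrades many lincRNAs. The list made for them also holds Xrn1, Xrn2 and Mtpap, which are not parts or adaptors of the exosome. All 25 listed genes in the table were tested, 2 rose and 4 fell, where 9.51% of all genes rose and 8.39% fell. No direction is read from these counts, and their median log2 fold change was -0.00, beside 0.00 for all genes. Xrn2, an exonuclease outside the exosome, was at 178 ± 2.91 CPM in saline and rose to 212 ± 5.86 CPM (SD, n = 3; 0.25; edgeR adjusted p = 0.00245). The core exosome subunit Exosc9 rose by 0.26 (adjusted p = 0.0338). C1d, a cofactor of the nuclear exosome, was at 43.5 ± 1.48 CPM in saline and fell to 21.1 ± 1.23 CPM (SD, n = 3; -1.05, adjusted p = 8.55e-05). The adaptor subunits Zfc3h1 (-0.38, adjusted p = 0.00877), Zcchc7 (-0.55, adjusted p = 0.0265) and Zc3h18 (-0.17, adjusted p = 0.00536) fell as well. The list was written with earlier results of these data known.

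Of the lincRNAs that the rule leaves out, 6 were tested, with log2 fold changes from -0.62 in Malat1 to 0.12 in Snhg6. Malat1, Neat1 and Snhg15 were called lower and none higher, where 8.39% of all genes were called lower and 9.51% higher. Within a group, the widest spread among members with at least 300 counts was in 4933404O12Rik, at 25.3, 5.18 and 27.1 CPM in carnosine against 21.6 to 25.1 CPM in saline. In Gm10482, carnosine replicate 3 was at 2.34 CPM against 5.30 and 6.24 CPM in the other carnosine libraries and 8.09 to 10.1 CPM in saline (-0.99, edgeR adjusted p = 0.0637). In both members 1 carnosine library stood apart from the rest of its group.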

How the data were processed

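RNA was measured in 6 libraries of sorted LT-HSCs, 3 from saline-treated and 3 from carnosine-treated mice. The deposited table holds, per the file headers, a raw count and an FPKM of each gene for every library. The submitters' processing notes list edgeR, StringTie, HISAT2 and CASAVA 1.8, and the build GRCm38. For the annotation release, the strand setting and reads that match several places, the method was not stated in the sources used here.

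TMM scaling (trimmed mean of M-values) was applied to the deposited counts, which were filtered with filterByExpr on the group and tested over all 15298 genes kept with the two-sided quasi-likelihood F test of edgeR 4.0.16 (R 4.3.3). Adjusted p-values are Benjamini-Hochberg values of this test over all genes, called means under 0.05, and a positive log2 fold change, given with its standard error (SE), is a higher level in carnosine. CPM are on the TMM scale. The test was run first on simulated counts. Where a count is 0, up to 3 counts (0.226 to 0.291 CPM) are possible from counting error alone. The deposited FPKM values were used for levels per length and in limma 3.58.1 fits. DESeq2 1.42.0 and voom weights in limma were run as alternative tests. The counts were also rescaled by size factors, by the upper quartile and by plain totals. Low-count filtering was dropped or raised to 1 CPM in 3 libraries, and limma was run on log2(FPKM + 1) and log2(FPKM + 0.1). Further fits added a replicate block or dropped each library in turn. Other thresholds and other minimum counts were tried too.

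Members and lists were chosen with earlier results of these data known. Genes were named by rule: in each direction the 10 largest changes among called members whose groups did not overlap, the 10 highest by mean CPM and by mean FPKM, members of the name lists, up to 10 members nearest to a called coding neighbour within 5 kb, and 3 rows on each side of the minimum. The other called members, the microRNA hosts, Gm44067, 4933404O12Rik, Gm10482 and genes named beside a member were added after their values were seen. Transcripts, exons and 50-base words came from GENCODE M21, in which 195 members were found, 193 with the same coordinates. A neighbour is the nearest protein-coding row of the table, predicted Gm genes left out, a choice made after seeing the data.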

Additional observations from a re-analysis of the deposited data

How the results depend on the processing

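Of the 17 called members, 6 kept their call in all 16 alternatives: Gm47283, Gm42047, Gm19590, Gm26802, Mir142hg and 4833445I07Rik. With DESeq2 11 members were called, 1 of them higher. At an adjusted p under 0.01 there were 5 calls, 5 lower and 0 higher, and under 0.1 there were 36, 32 of them lower. With a summed count of at least 120 as the minimum, 1 member was called higher. Without members near a same-strand coding gene or overlapping one, 11 were called, 1 higher, of 138 left. Without members that share sequence, an alternative chosen after seeing the data, 1 was called higher. The median log2 fold change was -0.061 on log2(FPKM + 1), where the pseudocount shrinks low genes, and kept its sign in every alternative run. With 1 library left out, 8 to 12 were called, 0 to 2 higher and 8 to 10 lower, in fits with fewer libraries.

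With the replicate block 10 members were called, 8 of them lower. Same-numbered libraries did not deviate together (correlations -0.05, -0.07 and 0.02), so the numbers were not taken to pair samples.

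Signs that turned were all of members not called. AW112010 was at -0.0081 with upper quartile scaling and at -3.2e-05 on log2(FPKM + 0.1). With 1 library left out, log2 fold changes ran from -0.59 to 0.021 in A330035P11Rik, -0.036 to 0.039 in AW112010, -0.11 to 0.024 in C030037D09Rik, -0.27 to 0.26 in Gm15728, -0.052 to 0.041 in Gm7292, -0.20 to 0.029 in Jpx and -0.14 to 0.43 in Pvt1; the cause was not tested. The share of counts without Gm42418, Gm26917 and AY036118 was not run, since none of them is a member. Depth limits the members with few counts: the median SE was 0.30 among the 96 with the smaller sums.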
